A study of Mus musculus with 2 samples.

Results

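Neutrophils of the mouse aorta were described here from droplet single-cell RNA libraries, in which each barcode stands for the contents of 1 droplet and each unique molecular identifier (UMI) for 1 captured RNA molecule. A barcode was kept if it had at least 1000 UMIs, at least 300 genes and at most 20% mitochondrial UMIs. A kept barcode was taken as a neutrophil if S100a8 plus S100a9 made up at least 10 per 10000 of its UMIs, if at least 2 of Csf3r, Retnlg, Cxcr2, G0s2 and Mmp9 had a UMI, and if C1qa, C1qb and C1qc together had at most 2 UMIs. These conditions found 247 neutrophil barcodes among 45000 kept barcodes. Since measured RNA chose the members, the 10 genes of the conditions are given as a description and support nothing.

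The study took aortas of ApoE-/- mice, 20 weeks old, that were HFD-fed and either did or did not receive MSC_ITGB3, with 1 sample named HFD and 1 named MSC_ITGB3. Both groups share the ApoE deletion and the HFD. The labels do not spell out the name MSC_ITGB3, and they do not say how many animals were pooled. The barcodes were deposited in 1 matrix and carry a suffix of 1 or 2, which nothing in the sources used here ties to either group, so the text speaks of library 1 and library 2 and makes no comparison between HFD and MSC_ITGB3. With 1 library a group there is no replicate, cells of 1 library are not replicates, and no test was made. All intervals are exact 95% intervals, Poisson for levels and ratios and Clopper-Pearson for shares, and cover counting error only. Apoe itself was read at 14.0 CPM (UMIs per 1000000 summed UMIs) in the other kept barcodes of library 1 and at 8.41 CPM in those of library 2, and the labels do not say which bases are deleted, so this does not check the genotype.

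Neutrophils are short-lived granulocytes that leave the bone marrow as finished cells, with their granule proteins already made, and enter tissue along gradients of chemokines and complement and formyl peptides. In atherosclerotic arteries they are few, and are known for releasing alarmins such as S100A8 and S100A9, proteases, reactive oxygen and chromatin traps. Their messenger RNA changes with age and place. Transcripts of the azurophil granule belong to precursors in the marrow, those of the specific and gelatinase granules to later stages, and cells that have entered tissue commonly carry transcripts of inflammatory chemokines and cytokines. CXCL10 is a chemokine induced by interferons that draws T cells through the receptor CXCR3.

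The upstream sequences of 4 genes on which the description turns are shown first: S100a8 and S100a9, whose RNA chose the members, Cxcl2, the chemokine of the lists with the most UMIs in them, and Cxcl10, whose carriers are described last. Each line gives the 250 bases before the RefSeq start of the gene on GRCm38.p6, 5′ to 3′ on the strand of the gene, and capitals mark matches to 3 motifs searched on both strands: the C/EBP letters TTGCNNAA, the interferon regulatory factor letters GAAANNGAAA, and the NF-kappaB consensus.
S100a8, chr3:90668821-90669070, plus strand: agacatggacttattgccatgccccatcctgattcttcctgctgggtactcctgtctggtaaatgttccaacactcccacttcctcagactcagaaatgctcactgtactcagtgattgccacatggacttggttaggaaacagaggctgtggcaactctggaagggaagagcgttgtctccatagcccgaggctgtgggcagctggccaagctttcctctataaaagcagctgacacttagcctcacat
S100a9, chr3:90695722-90695971, minus strand: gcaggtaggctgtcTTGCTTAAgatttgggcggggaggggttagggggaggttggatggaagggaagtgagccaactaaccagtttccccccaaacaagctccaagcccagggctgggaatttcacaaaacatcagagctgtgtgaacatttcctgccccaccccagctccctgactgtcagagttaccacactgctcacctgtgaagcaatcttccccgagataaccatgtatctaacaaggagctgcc
Cxcl2, chr5:90903649-90903898, plus strand: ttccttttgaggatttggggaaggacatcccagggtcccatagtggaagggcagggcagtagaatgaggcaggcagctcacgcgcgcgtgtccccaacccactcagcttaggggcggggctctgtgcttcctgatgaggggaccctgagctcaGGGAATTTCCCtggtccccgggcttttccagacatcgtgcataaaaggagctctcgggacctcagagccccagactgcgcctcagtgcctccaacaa
Cxcl10, chr5:92348890-92349139, minus strand: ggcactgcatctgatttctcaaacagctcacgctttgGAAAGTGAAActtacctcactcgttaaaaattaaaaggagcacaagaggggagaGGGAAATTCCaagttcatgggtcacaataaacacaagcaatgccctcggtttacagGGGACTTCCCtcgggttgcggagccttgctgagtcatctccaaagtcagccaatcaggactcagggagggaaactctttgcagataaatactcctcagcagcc
The S100a9 sequence holds 1 C/EBP match, the Cxcl2 sequence an NF-kappaB match on each strand that overlap each other, and the Cxcl10 sequence 1 interferon regulatory factor match and 2 NF-kappaB matches. The S100a8 sequence holds no match to these letters. Also searched were Retnlg, with 1 C/EBP match, and Il1b and Acod1, with 0 matches to any of the 3 motifs. Over 32851 RefSeq windows of 300 bases (250 before and 50 after the start), 10.8% hold the C/EBP letters, 4.51% the NF-kappaB consensus and 3.44% the interferon regulatory factor letters on either strand. A match is a description of letters and was not tested as a binding site.

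Library 1 held 157 neutrophils of 16501 kept barcodes, or 0.951% (0.809 to 1.11), and library 2 held 90 of 28499, or 0.316% (0.254 to 0.388). The share was higher in library 1, with intervals that do not overlap. The neutrophils had a median of 2948 UMIs in library 1 and 2051 in library 2, against 2224 and 1724 over all kept barcodes, and 696083 and 222883 summed UMIs in all. A total of 160 barcode sequences occurred among the kept barcodes of both libraries, and 0 of these were neutrophils. No doublet caller was run.

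S100a8 and S100a9 encode the 2 chains of calprotectin, the major cytosolic protein of neutrophils. Their summed share ran from 12.0 to 2943 per 10000 UMIs in library 1, with a median of 390, and from 12.4 to 2416 in library 2, with a median of 76.1. The range was wide in both libraries, and the typical neutrophil barcode of library 1 carried more of this RNA than that of library 2. Just outside the condition on S100a8 and S100a9, with all others met, the nearest barcodes had 9.40 and 9.25 per 10000, and 16 and 19 barcodes failed on that condition alone. Barcodes of 10 to 100 UMIs, taken here as free RNA, held the pair at 3.38 and 1.21 per 10000.

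The plot of S100a8 plus S100a9 against other cells' markers shows that the members with little of this RNA differ from those with much of it. A division at 200 per 10000 UMIs, chosen after the data had been seen, gives an S100-high tier of 89 and 30 barcodes and an S100-low tier of 68 and 60 in libraries 1 and 2. In the S100-low tier, markers of fibroblasts, smooth muscle and endothelium together had a median of 168 per 10000 UMIs in library 1 (range 0 to 638) and 202 in library 2 (6.23 to 387). In the S100-high tier the medians were 7.83 (0 to 325) and 10.4 (0 to 448). At least 3 of the 5 fibroblast markers (Col1a1, Col1a2, Dcn, Lum, Pdgfra) had a UMI in 57 of 68 and 51 of 60 S100-low barcodes, and in 23 of 89 and 8 of 30 S100-high ones. Most S100-low barcodes thus carried RNA of the vessel wall beside the neutrophil genes, and whether these are droplets with more than 1 cell or with free RNA was not tested.

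**Figure D1:**
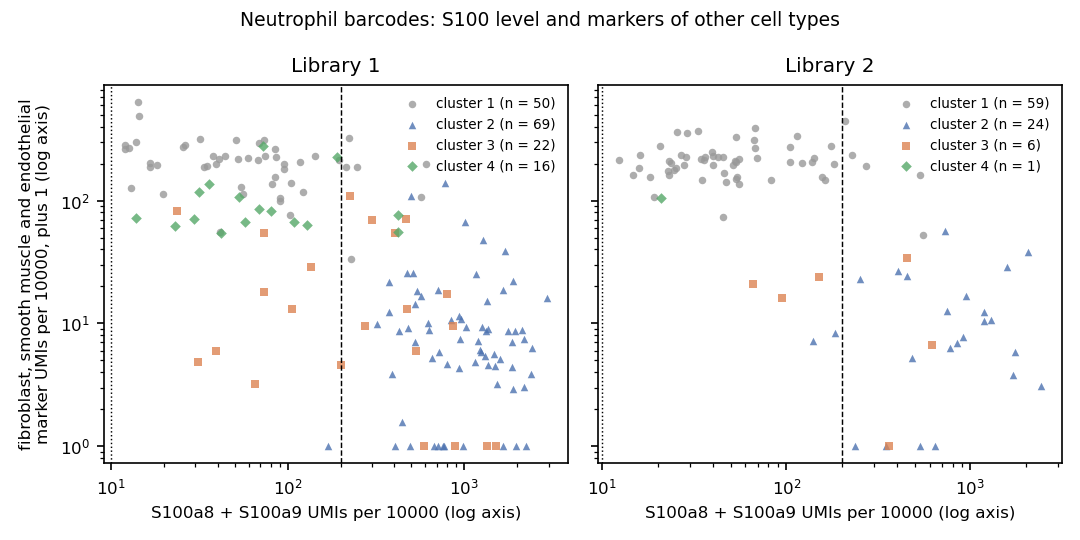
Each point is a neutrophil barcode, with S100a8 plus S100a9 on the x axis (UMIs per 10000, log axis) and the summed markers of fibroblasts, smooth muscle and endothelium on the y axis (UMIs per 10000 plus 1, log axis), 1 panel per library, colours for the 4 clusters and lines at 10 and 200 per 10000. The barcodes to the right of 200 per 10000 lie mostly at few vessel wall markers (median 7.83 and 10.4 per 10000), and those to the left mostly at many (168 and 202).

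The deepest barcodes were of this mixed kind. The neutrophil barcode with the most UMIs in library 1, at 49284, had S100a8 plus S100a9 at only 14.2 per 10000, with 1034 UMIs of Col1a1 and 401 of Col2a1, the collagens of connective tissue and cartilage. The next, at 44979 UMIs, had 155 UMIs of Pecam1 and 111 of Vwf, both endothelial genes. In the S100-high tier of library 2, the deepest barcode, at 13317 UMIs, held 14.3% of that tier's UMIs and 297 UMIs of Acta2, the smooth muscle actin. Median mitochondrial shares were 0.158% and 0.237% in the S100-high tier, 1.77% and 2.21% in the S100-low tier, and 2.62% and 3.36% in the other kept barcodes. The levels below are therefore those of the S100-high tier, from 337614 UMIs in library 1, where 1 UMI is 2.96 CPM, and 93049 in library 2, where it is 10.7 CPM.

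The defining markers of neighbouring blood cells were low in the S100-high tier. The summed level of 7 monocyte markers was 204 and 140 CPM, below the 327 and 204 CPM of free RNA, with 2 and 4 of the 7 at 0. That of 10 macrophage markers was 157 and 172 CPM, against 840 and 870 CPM in free RNA, with 4 and 5 of the 10 at 0. C1qa, C1qb and C1qc are among these 10 and were limited by the conditions, so part of the macrophage result was fixed in advance. The 5 neutrophil markers named for these cells (S100a8, S100a9, Csf3r, Retnlg, Cxcr2) summed to 107561 and 92188 CPM, against 5747 and 7694 CPM in the S100-low tier. All 5 are genes of the conditions, and the tier itself was set on 2 of them, so this contrast is a description and checks nothing. Fibroblast markers summed to 1623 and 2031 CPM there, against 10763 and 14945 CPM in free RNA, and smooth muscle markers to 391 CPM in library 1 and 6642 CPM in library 2.

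Levels were set against all other kept barcodes of the same library, and a gene was called higher or lower if its ratio was at least 2-fold in both libraries with each interval clear of 1. Over all 247 neutrophils, 9.69% of 7971 genes compared were called higher and 3.4% lower, and over the S100-high tier 11.9% of 8261 were called higher and 15.5% lower. The median gene lay below 1 in the S100-high tier, at a log2 ratio of -0.72 in library 1 and -0.76 in library 2. Scaling by trimmed means (TMM) in place of total UMIs moved the share of calls that were higher from 74.0% to 86.6% over all neutrophils and from 43.4% to 55.2% in the S100-high tier. Because the members were chosen on their own RNA, these calls describe them and test nothing.

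Granule genes differed by the granule they belong to. Of the azurophil list, 1 of 4 genes compared was called higher and 1 lower. Mpo and Elane, which encode myeloperoxidase and neutrophil elastase, and Ctsg had 0 UMIs in the S100-high tier of both libraries, which at 3 counts allows up to 8.89 and 32.2 CPM. Of the specific granule list, 9 of 10 genes compared were called higher and 0 lower, with a median log2 ratio of 3.05 and 2.36. Lcn2, the siderophore-binding lipocalin, was read at 1445 and 1268 CPM (other barcodes 480 and 542), and Pglyrp1, a peptidoglycan-binding protein, at 823 and 1075 CPM (4.03 and 2.71). Camp and Ngp, cathelicidin and a secretory granule protein of late precursors, came mostly from 1 library 1 barcode of 4645 UMIs, which held 48 of the 49 Camp UMIs and 60 of the 77 Ngp UMIs. In library 2 the calls of Camp and Ltf rest on 2 UMIs each, and 1 barcode held 13 of the 17 Ngp UMIs. Of the gelatinase granule and secretory vesicle list, 10 of 11 were called higher, among them Mmp8, a collagenase, at 252 and 118 CPM and Arg2, an arginase, at 661 and 527 CPM. Mmp9, which is among the genes of the conditions, was read at 332 and 290 CPM.

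The 21 mature neutrophil genes in the matrix were all called higher, with a median log2 ratio of 5.94 and 5.66. Of these Cxcr2, Csf3r, Retnlg and G0s2 are fixed by the conditions. Retnlg, a resistin-like secreted protein of mature neutrophils, ran from 0 to 717 per 10000 UMIs among the S100-high barcodes of library 1 (median 32.7, 12 of 89 at 0) and from 0 to 443 in library 2 (median 42.9, 5 of 30 at 0). Among genes outside the conditions, Hdc, the enzyme that makes histamine, was read at 1134 and 763 CPM against 2.75 and 1.59 CPM in the other barcodes. Il1r2, the decoy receptor for interleukin 1, stood at 1389 and 999 CPM, and Hcar2, a receptor for hydroxy fatty acids, at 1362 and 2504 CPM. Wfdc21 (1238 and 1354 CPM) and Slpi (2198 and 3138 CPM) encode small secreted proteins of the whey acidic protein family, SLPI being an inhibitor of neutrophil elastase. Ly6g, the surface antigen used to sort mouse neutrophils, was read at 124 and 107 CPM against 0.0841 and 0.103 CPM. Genes of mature neutrophils were thus high, while these genes of the marrow-stage azurophil granule were not detected at this depth.

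**Figure D2:**
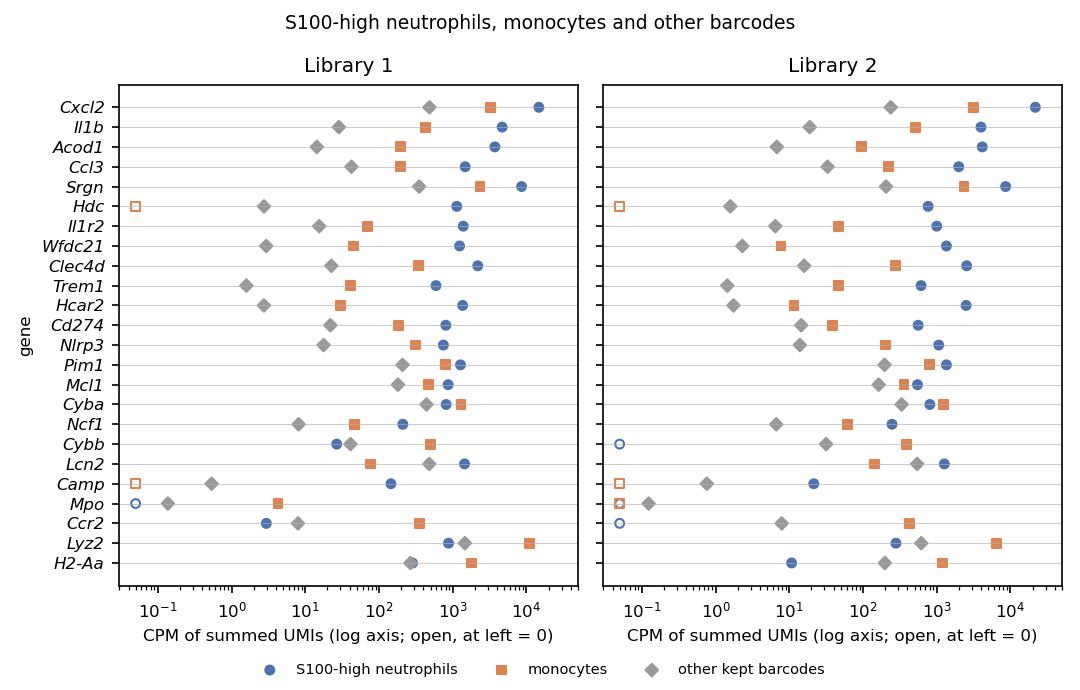
Level in CPM (log axis) of 24 genes in the S100-high neutrophils, the monocytes and the other kept barcodes of each library, with open symbols at the left for 0 UMIs. Cxcl2 is read at 14730 and 21741 CPM in the neutrophils, and Mpo is at 0.

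Several transcripts of secreted inflammatory proteins were far above the other barcodes in the S100-high tier. Cxcl2, a chemokine that attracts neutrophils through CXCR2, ran from 0 to 1137 per 10000 UMIs in library 1 (median 123, 1 of 89 at 0) and from 11.4 to 896 in library 2 (median 183). Summed, it stood at 14730 and 21741 CPM against 484 and 238 CPM in the other barcodes, a ratio of 30.5 (29.6 to 31.4) and 91.5 (87.4 to 95.8). After every barcode was thinned to 1000 UMIs, 97.8% and 100% of S100-high neutrophils had a Cxcl2 UMI, against 13.3% and 8.12% of endothelial barcodes. Endothelial barcodes are not the class most like neutrophils, and monocytes also held Cxcl2, at the levels given below. Nearly all of these cells therefore carried the transcript, and its spread from barcode to barcode was wide in both libraries.

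Il1b, the precursor of interleukin 1 beta, stood at 4674 (4446 to 4910) and 3976 (3582 to 4403) CPM against 28.6 and 18.9 CPM. Its ratio was 164 (154 to 174) in library 1 and 210 (187 to 235) in library 2. Ccl3, a macrophage inflammatory chemokine, stood at 1475 and 1988 CPM, and was spread unevenly, with 34 of 89 and 6 of 30 barcodes at 0. Of 24 chemokine and cytokine genes compared, 12 were called higher, including Ccl4 (966 and 355 CPM), Ccl6 (1170 and 752 CPM), Tnf (421 and 344 CPM), Osm (358 and 204 CPM) and Il15 (207 and 247 CPM). Another 6 were called lower, among them Cxcl1 (172 and 96.7 CPM against 867 and 475 CPM), the monocyte attractant Ccl2 (26.7 and 75.2 CPM against 450 and 267 CPM) and Il6. Cxcl1 and Cxcl2 bind the same receptor, so these neutrophils lay above the other barcodes for 1 such ligand and below them for the other. Cxcl9, the interferon gamma chemokine, had 0 UMIs in the S100-high tier of both libraries.

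The NF-kappaB response list had 13 of 22 genes called higher and 0 lower, at a median log2 ratio of 1.35 and 1.85. Acod1, the enzyme that makes itaconate, stood at 3729 and 4138 CPM against 14.4 and 6.77 CPM. Its values ran from 0 to 154 per 10000 UMIs in library 1 (median 39.8) and from 0 to 152 in library 2 (median 32.6). Nfkbia, the inhibitor of NF-kappaB, was read at 3166 and 3450 CPM (993 and 553), and Nfkbiz, a nuclear co-regulator, at 1025 and 1075 CPM (349 and 284). Sod2 and Ptgs2 were not called. Of the immediate-early and heat shock list, 4 of 18 were called higher, including Dusp1 (2642 and 3439 CPM) and Zfp36 (1682 and 1827 CPM), and 5 lower, including Hspa1a (240 and 355 CPM against 895 and 1017 CPM) and Egr1, and 8 were called lower without the 2 deepest barcodes of each library.

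Receptors of chemotaxis and immune sensing were called higher in 23 of 29 cases and lower in 0, at a median log2 ratio of 3.39 and 3.38. Cxcr2, which is fixed by the conditions, is counted among these 23 and among the 7 of the ageing list given below. Ccr1, a receptor for CCL3, stood at 761 and 774 CPM, and C5ar1, the receptor for complement C5a, at 450 and 516 CPM. Fpr1 and Fpr2, which sense formyl peptides, stood at 181 and 236 CPM and at 119 and 86.0 CPM. Clec4d, a C-type lectin receptor, was read at 2183 and 2547 CPM, and Trem1, an amplifier of inflammation, was at 592 and 613 CPM. Of the genes linked to neutrophil ageing and tissue entry, 7 of 11 were called higher: Cxcr4, whose ligand retains neutrophils in marrow, stood at 311 and 516 CPM, and Cd274, which encodes PD-L1, at 806 and 559 CPM. Siglecf, used elsewhere to mark tissue-modified neutrophils, had 9 UMIs in 5 of all library 1 neutrophils and 0 in library 2. Adhesion genes were called higher in 8 of 13 cases, among them Itgam (536 and 441 CPM) and Selplg (441 and 451 CPM), and Itgb1 was called lower.

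Of the 6 NADPH oxidase genes, 4 were called higher, among them the cytosolic subunits Ncf1 (210 and 247 CPM) and Ncf4 (193 and 204 CPM) and the GTPase Rac2 (406 and 365 CPM). The membrane subunit Cyba was read at 815 and 806 CPM against 440 and 334 CPM and was not called, although TMM scaling called 5 of the 6 higher. Cybb, the catalytic membrane subunit, was at 26.7 and 0 CPM, near the 28.3 and 21.4 CPM of free RNA, whereas monocytes held it at 497 and 394 CPM. Padi4, the enzyme that citrullinates histones in chromatin traps, was called higher at 71.1 and 86.0 CPM, 1 of 3 called among 6 genes of the trap list. In the survival list 10 of 23 were called higher and 0 lower, including Mcl1 (865 and 548 CPM), which keeps neutrophils alive, Pim1 (1274 and 1354 CPM) and the inflammasome sensor Nlrp3 (746 and 1064 CPM).

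Of 19 glycolysis and hypoxia genes, 3 were called higher, the glucose transporter Slc2a3 (267 and 236 CPM), Hif1a (518 and 677 CPM) and the hexokinase Hk3 (101 and 53.7 CPM), and 1 lower, with a median log2 ratio of 0.15 and 0.17. With TMM scaling 6 were called higher. Of 13 lipid genes, 5 were called higher and 1 lower, and 7 of 12 were higher with TMM scaling. Among the 5 were Plin2, which coats lipid droplets, at 740 and 860 CPM, and Olr1, a receptor for oxidised low-density lipoprotein, at 107 and 355 CPM. Slc7a11, the cystine transporter, was in no list but among the genes with the largest ratios, at 2968 and 3364 CPM against 38.6 and 23.9 CPM. Of the transcription factor list, 8 of 22 were called higher, including Cebpb (447 and 355 CPM), Spi1 (767 and 774 CPM) and Klf2 (859 and 570 CPM), while Cebpe, the factor of granule precursors, had 0 UMIs in both libraries. Of 13 genes of MHC class I and II, H2-D1 alone was called higher (1682 and 1666 CPM). With TMM scaling 2 of the 13 were called higher, and without the 2 deepest barcodes of each library 0. Class II RNA in library 1 came mostly from 1 barcode of 17725 UMIs, which held 213 of the 234 Cd74 UMIs.

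Interferon-stimulated genes were mixed: 17 of 41 were called higher and 1, Bst2, lower, at a median log2 ratio of 0.71 and 0.84, and with TMM scaling 0 were lower. Ifitm1, a membrane restriction factor, was read at 3916 and 3525 CPM against 39.1 and 26.2 CPM. Slfn4 stood at 296 and 451 CPM against 0.557 and 0.515 CPM, Slfn1 at 240 and 161 CPM, Rsad2 (viperin) at 154 and 215 CPM and Isg15 at 163 and 419 CPM. Ifit3 was not called. The summed list ran from 24.6 to 393 per 10000 UMIs over S100-high barcodes of library 1 (median 116) and from 22.5 to 371 in library 2 (median 106), so the signal varied widely within both libraries.

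**Figure D3:**
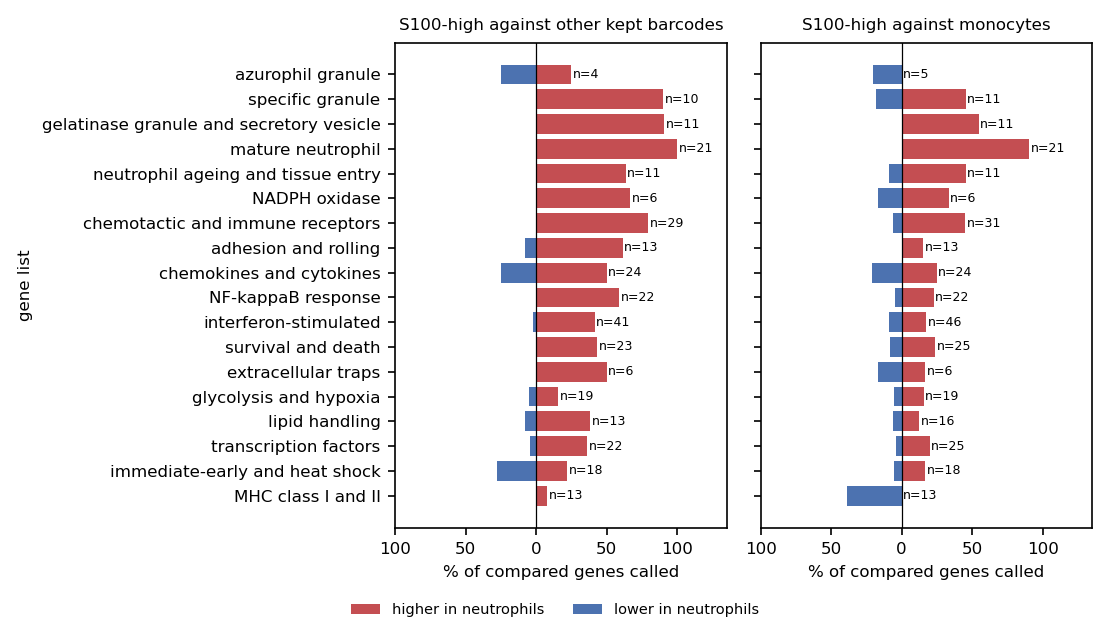
Share (percent) of each list's compared genes called higher or lower in the S100-high neutrophils, against the other kept barcodes in 1 panel and against monocytes in the other, with lower calls drawn to the left of 0 and n the number compared. The mature neutrophil list is called higher in 21 of 21 and 19 of 21 genes.

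Monocytes are the blood cells most like neutrophils, and they were chosen by at least 3 of Ly6c2, Plac8, Ccr2, Ms4a4c and Chil3, by Lyz2, and by S100a8 plus S100a9 under 10 per 10000, so that part of the difference is set by the conditions. There were 57 in library 1 and 44 in library 2, with median depths of 8171 and 4680 UMIs. Against them, 5.94% of 7849 genes were called higher in the S100-high neutrophils and 7.92% lower, and TMM scaling moved the share of calls that were higher from 42.8% to 53.6%. Of the mature list, 19 of 21 were called higher, with a median log2 ratio of 4.11 and 4.49, against -0.31 and -0.44 over all genes. The specific granule list had 5 higher and 2 lower of 11, the 2 being Cybb and Chil3, the latter a gene that chose the monocytes. The receptor list had 14 higher and 2 lower of 31, with a median log2 ratio of 0.77 and 0.71. The NF-kappaB list had 5 higher and 1 lower of 22, and the adhesion list 2 and 0 of 13. The NADPH oxidase list had 2 higher and 1 lower of 6, the chemokine and cytokine list 6 and 5 of 24, and the interferon list 8 and 4 of 46. Asprv1, an aspartic protease, had 909 and 2407 CPM in the neutrophils and 0 UMIs in the monocytes, hence at least 142-fold and 208-fold higher by a limit of 3 counts. Hdc, also at 0 in the monocytes, was at least 177-fold and 65.9-fold higher. Il1b was higher (422 and 510 CPM in monocytes), as were Acod1 (196 and 96.5 CPM) and Cxcl2 (3213 and 3119 CPM), so that all 3 differed from monocytes as well as from the other barcodes. Ripor2, Sh2d3c and Mrgpra2b were also called higher, at 989 and 1053, 607 and 795, and 157 and 161 CPM. In the other direction stood 5 of 13 MHC genes, Pld4 (0 in both libraries against 245 and 212 CPM) and Ifi30, a lysosomal reductase (47.4 and 0 CPM against 958 and 923 CPM).

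The 2 libraries were compared as libraries only. A gene was called at 2-fold with its interval clear of 1, among genes at 50 CPM or more in either library. Over all neutrophils, 6.45% of 3770 genes were called higher in library 2 and 6.95% lower, and over the S100-high tier 6.48% of 3304 and 5.93%. TMM scaling moved the share of calls that were higher from 48.1% to 37.9% over all neutrophils. Many of the largest differences lay in genes of other cells. Ptprb, an endothelial phosphatase, went from 477 CPM in library 1 to 4.49 CPM in library 2 over all neutrophils, Vwf from 475 to 31.4 CPM, and Tagln, a smooth muscle gene, from 336 to 1857 CPM. In the S100-high tier 1 barcode set several of them: the library 2 barcode of 13317 UMIs held 225 of 231 Tagln UMIs and 39 of 40 of Myh11, and a library 1 barcode of 21464 UMIs held 303 of 309 Apod UMIs and all 58 of Itih5.

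In the S100-high tier the mature list had 0 called higher and 1 lower of 21, a share near that over all genes. The NADPH oxidase list had 0 calls of 5, the NF-kappaB list 0 of 20 and the adhesion list 0 of 11. The receptor list had 1 higher and 3 lower of 28, the ageing and tissue entry list 2 lower of 10, and the MHC list 4 lower of 11. Class II RNA of library 1 came mostly from 1 barcode of 17725 UMIs, with 89 of 96 H2-Aa UMIs and 213 of 234 of Cd74. Of Fcgr2b, a receptor called lower, 1 barcode of library 1 held 37 of 40 UMIs. The call in the mature list was Stfa2l1, a cystatin of a cluster of near-identical copies whose counts are uncertain, at 892 CPM in library 1 (301 UMIs in 36 of 89 barcodes) and 129 CPM in library 2 (12 UMIs in 6 of 30). The interferon list had 2 higher and 3 lower of 27. The chemokine and cytokine list had 4 lower of 16, Ccl4 (966 and 355 CPM), Cxcl3 (85.9 and 10.7 CPM), Tgfb1 (97.7 and 10.7 CPM) and Cxcl10, and 0 higher. Over all neutrophils Ifit3 was higher in library 2 (161 CPM against 17.2 CPM), where 21 of its UMIs came from 1 barcode of 7526 UMIs. With no replicate library, these differences have no check beyond counting error.

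Clustering of the 247 barcodes gave 4 clusters, which are given by number because the same genes made and describe them. Clusters 1 and 4 held most S100-low barcodes. Cluster 1, with 50 and 59 barcodes in libraries 1 and 2, was led by genes of fibroblasts such as Sfrp2, which had a UMI in 66 of its 109 barcodes, with the collagen-binding proteoglycan Dcn at 7581 CPM. The cartilage genes Col2a1 and Acan were also among its leading genes, but 401 and 128 of their UMIs came from the 1 barcode of 49284 UMIs. Cluster 4, with 16 and 1, was led by endothelial genes, with Pecam1 at 2278 CPM. Clusters 2 and 3 held 106 of the 119 S100-high barcodes: 90 of the 93 barcodes of cluster 2 were S100-high and 16 of the 28 of cluster 3. Cluster 2 had 69 and 24 barcodes, cluster 3 had 22 and 6, and the median depths were alike (3089 and 2681.5 UMIs against 2534 and 2518.5).

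Clusters 2 and 3 were set side by side gene by gene, and a gene was called if it was 2-fold in both libraries with both intervals clear of 1. Of 4464 genes at 50 CPM or more in either cluster of either library, 1.46% were called higher in cluster 3 and 0.717% lower. These calls describe the clusters and test nothing, since the clusters were made on the same RNA.

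Of the mature list, 3 of 21 genes were called higher in cluster 2 and 1 in cluster 3. The 3 were Retnlg, at 11318 and 8100 CPM in cluster 2 and 898 and 0 CPM in cluster 3, Wfdc21 (1547 and 1691 CPM against 305 and 63.2 CPM) and Sorl1 (1199 and 1455 CPM against 465 and 253 CPM). The 1 was Clec4e, a C-type lectin receptor (1079 and 1073 CPM against 2694 and 4488 CPM in cluster 3). Of the specific granule list, 3 of 8 were called higher in cluster 2, Lcn2 (1704 and 1632 CPM against 706 and 126 CPM), Pglyrp1 and Hp. The gelatinase granule list had 0 of 10 called in either direction. Of 3 azurophil list genes compared, Igsf6 alone was called, higher in cluster 3. Mpo, Elane, Prtn3 and Ctsg of that list had 0 UMIs in clusters 2 and 3 of both libraries. Mmp8 (323 and 191 CPM against 48.1 and 0 CPM) and Ly6g (149 and 132 CPM against 16.0 and 0 CPM) were not called, as the counts of library 2 are few.

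Of 32 interferon-stimulated genes, Ifitm1 alone was called, at 4772 and 4263 CPM in cluster 2 against 1652 and 822 CPM in cluster 3. Rsad2, at 207 and 368 CPM against 16.0 and 63.2 CPM, was not. The chemokine and cytokine list had 3 of 21 called higher in cluster 3, Tnf (1556 and 1011 CPM against 376 and 250 CPM in cluster 2), the interleukin 1 receptor antagonist Il1rn (641 and 1011 CPM against 161 and 162 CPM) and Il10, and 1 in cluster 2, Il15 (289 and 338 CPM against 32.1 and 0 CPM in cluster 3). Ccl3, at 4875 and 4615 CPM in cluster 3 against 1414 and 2396 CPM, missed the 2-fold limit in library 2.

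In the NF-kappaB list 5 of 21 were called higher in cluster 3 and 0 in cluster 2, among them Icam1, the adhesion ligand (289 and 443 CPM against 33.1 and 29.4 CPM). The survival list had 5 of 20 higher in cluster 3 and 0 in cluster 2. Of these 3 belong to the Bcl2a1 genes, near-identical copies whose counts are uncertain, Bcl2a1b being at 818 and 2718 CPM against 99.2 and 58.8 CPM. Ccrl2, a non-signalling receptor that binds chemerin (3063 and 5057 CPM against 657 and 853 CPM), and Olr1 (433 and 2971 CPM against 91.0 and 14.7 CPM) were also called higher in cluster 3. The NADPH oxidase, receptor, trap and MHC lists had 0 calls. Library 2 gives cluster 3 only 6 barcodes, and 1 of them, of 3561 UMIs, held 51 of its 80 Ccrl2 UMIs and 20 of its 47 of Olr1.

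**Figure D4:**
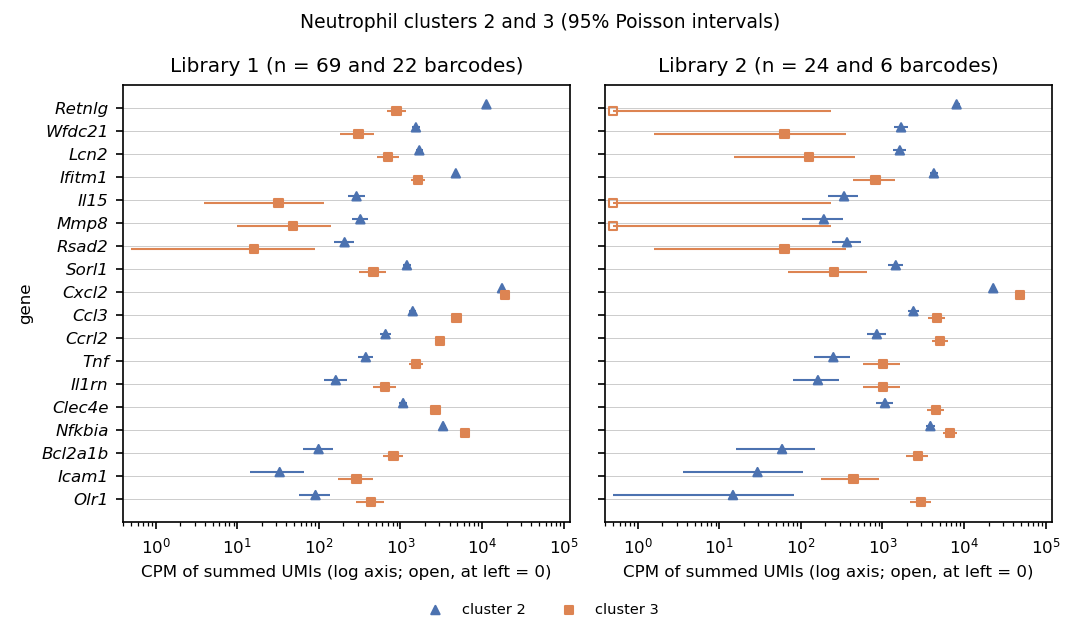
Level in CPM (log axis) of 18 genes in clusters 2 and 3 of the neutrophils, by library, with bars for the 95% Poisson interval and open symbols for 0 UMIs. Retnlg is at 11318 and 8100 CPM in cluster 2 against 898 and 0 in cluster 3, and Ccl3 at 4875 and 4615 CPM in cluster 3 against 1414 and 2396 in cluster 2.

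Cxcl10 was carried by few neutrophils. In library 1, 8 of 157 barcodes had a Cxcl10 UMI, or 5.10% (2.23 to 9.79), and in library 2, 4 of 90, or 4.44% (1.22 to 11.0). The S100-high tier had 4 of 89 and 0 of 30, the latter with an interval up to 11.6%, so that all 4 carriers of library 2 were S100-low. Endothelial barcodes, which can make CXCL10 themselves, had a share of 7.56% and 3.86% at median depths of 2940 and 2239 UMIs, and both values lie within the neutrophils' intervals. Macrophages had 15.7% and 12.0%, and monocytes 14.0% and 15.9%. The monocytes had median depths of 8171 and 4680 UMIs, and the other kept barcodes a share of 9.73% and 6.74%. With every barcode thinned to 1000 UMIs, 1.91% (0.396 to 5.48) and 2.22% (0.270 to 7.80) of neutrophils had a UMI. Endothelial barcodes then had 3.64% and 1.72%, macrophages 8.27% and 7.41%, and monocytes 5.26% (1.10 to 14.6) and 6.82% (1.43 to 18.7). The summed level in all neutrophils, 61.8 CPM (44.7 to 83.2) and 17.9 CPM (4.89 to 46.0), compares with 53.0 and 51.9 CPM in free RNA. In the S100-high tier of library 1 alone it was 116 CPM (82.1 to 158), above free RNA, with 33 of its 39 UMIs in 1 barcode. At this depth the share of carriers among neutrophils was thus not told apart from that among endothelial barcodes, and whether single carriers express the gene was not tested.

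**Figure D5:**
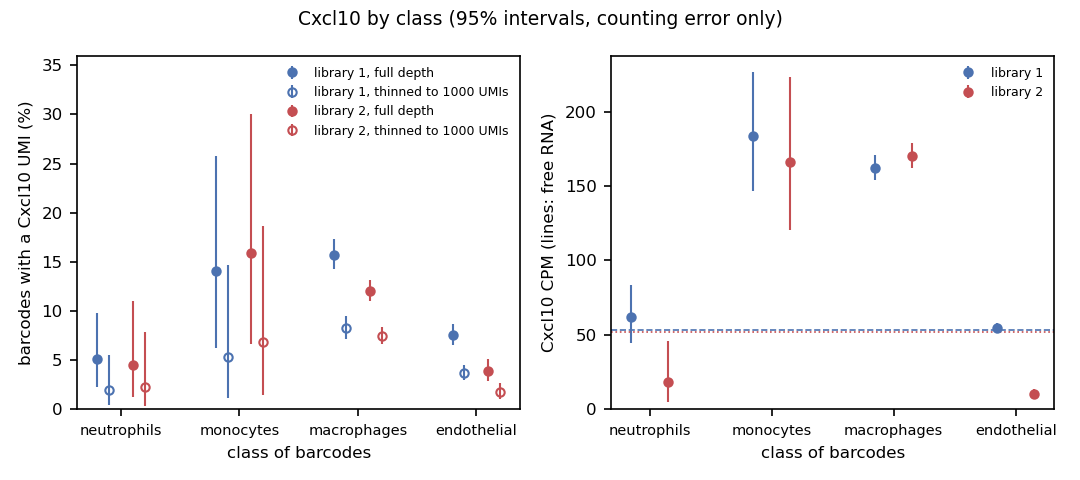
Share of barcodes with a Cxcl10 UMI (percent) at full depth and after thinning to 1000 UMIs, by class and library, and level in CPM with lines for free RNA, with bars for 95% intervals. Neutrophils are at 5.10% and 4.44%, beside 7.56% and 3.86% in endothelial barcodes and 15.7% and 12.0% in macrophages.

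The Cxcl10 UMIs were unevenly held. Of 43 in library 1, 33 came from 1 barcode of 21464 UMIs, the same that held most Apod and Itih5, and it also held 37 of the 40 Fcgr2b UMIs of the S100-high tier and 34 UMIs of Col1a1. Its interferon list stood at 57.8 per 10000 UMIs, below the median of the S100-high tier. Another library 1 barcode, with 3461 UMIs and S100a8 plus S100a9 at 708 per 10000, had 3 Cxcl10 UMIs with 6 of Rsad2 and 4 of Isg15. Its interferon list, at 393 per 10000, was the highest of all neutrophils, but a Cxcl10-negative barcode of library 1 reached 392. In library 2 each carrier had 1 UMI, and the one with 7526 UMIs also had 22 of Ifit1, 21 of Ifit3 and 16 of Isg15. Among the 12 carriers these 2 had the highest interferon lists, at 393 and 237 per 10000, and the other 10 lay between 33.8 and 82.9. Median interferon lists were 68.1 and 65.9 per 10000 in carriers against 86.8 and 67.0 in the others.

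Set against Cxcl10-negative neutrophils, the carriers rest on 81532 and 11336 UMIs, so that 1 UMI is 12.3 and 88.2 CPM. A gene was called here at 1.5-fold in the same direction in both libraries, and 16.6% of 3353 genes were called higher and 21.1% lower, of which 60 and 101 also had intervals clear of 1 in both libraries. TMM scaling moved the share of calls that were higher from 44.1% to 10.7%, and the median gene by 0.43 and 1.15 on the log2 scale. Among the genes with the largest ratios were those of vessel wall cells, such as Fbln2, an extracellular matrix protein (1239 and 353 CPM against 181 and 66.2 CPM), Epas1, Col8a1, Cdh13 and Esam. Gbp2, a guanylate-binding protein induced by interferon, was at 159 and 529 CPM against 34.2 and 61.4 CPM, from 13 and 6 UMIs. Neutrophil lists were lower in the carriers: 17 of 21 mature genes, 9 of 9 gelatinase granule genes and 18 of 24 receptors were called lower. These calls need no interval clear of 1. All carriers of library 2 were S100-low, as was the library 1 carrier of 44979 UMIs, and the part of the tier in these calls was not tested. The interferon list split into 9 higher and 6 lower of 24. The barcode of 44979 UMIs with endothelial markers is 1 of the 8 carriers of library 1 and holds most of their UMIs. In library 2 the S100-low carrier of 7526 UMIs holds most of the 11336 UMIs. The part of depth and of other cells' RNA in these differences was not tested.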

How the data were processed

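RNA was sequenced from 2 aorta samples with the Chromium 3' v3 kit, per the labels' protocols. The authors deposited 1 unfiltered matrix that gives, for 32285 genes and every barcode, the UMI count with no scaling, and its file headers name Cell Ranger 6.0.1. Also named, in the submitters' processing notes, are bcl2fastq, Seurat and the build mm10, whereas no source used here gives the annotation version. Summed over every barcode, the libraries held 110257209 and 124266676 UMIs, and over kept barcodes 95811863 and 97400115.

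Counts were summed per library and group and scaled to CPM. A gene was compared at 20 CPM or more on either side (50 CPM between libraries, clusters or Cxcl10 subsets), and 5 CPM was added for median log2 ratios and ranking only. The intervals of ratios are exact conditional Poisson intervals. Free RNA was taken from barcodes of 10 to 100 UMIs. Clusters used scanpy (20 principal components, 15 neighbours, resolution 0.5). Tools were Python 3.11.15, numpy 2.4.6, scipy 1.17.1, pandas 2.3.3, scanpy 1.11.5 and matplotlib 3.10.9. The calls of all neutrophils against other barcodes were tried on simulated counts that do not vary from barcode to barcode. The other comparisons were not tried in this way. No doublets were removed. The members and the 18 gene lists were chosen with earlier results of these data known, and 318 of 322 list genes were in the matrix. Named were list genes and those of the largest ratios: the 25 highest against other barcodes, the 15 highest and lowest between libraries, and the 25 highest and 10 lowest in Cxcl10 carriers. Fcgr2b UMIs, Apod and other genes named for single barcodes, and those of clusters 2 and 3, were chosen after their values were seen. A few results are not reported here.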

Additional observations from a re-analysis of the deposited data

Results flagged for a closer look

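Signal outside the kept barcodes came from those of 500 or more and under 1000 UMIs. Of 8191 such barcodes in library 1, 25 met every other condition for a neutrophil, or 0.305%, and of 20721 in library 2, 10 did, or 0.0483%. S100a8 plus S100a9 reached 200 per 10000 UMIs in 13 and 3 of them. They were not used in the report.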

How the results depend on the processing

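No paired analysis was possible because each group has 1 sample and the libraries are not tied to the groups. The S100-high tier, the comparisons with monocytes, the calls between clusters 2 and 3 and the runs without the 2 deepest barcodes were chosen after seeing the data. The neutrophil share of kept barcodes, 0.951% and 0.316% as reported, was 0.737% and 0.203% with a floor of 500 UMIs, 1.40% and 0.408% with 2000 UMIs, 0.770% and 0.204% with S100a8 plus S100a9 at 50 per 10000, 0.533% and 0.0947% with 3 of the 5 genes, and 0.539% and 0.105% for the S100-high tier. It was higher in library 1 under all 8 alternatives. The Cxcl10 share of library 1 was 1.91% after thinning, and that of library 2, 4.44% as reported, was 2.22% after thinning, 2.13% with 2000 UMIs and 1.72% with 50 per 10000, the last 2 from 1 barcode each, and 0% with 3 of the 5 genes and 0% in the S100-high tier. Genes called against other barcodes, 1043 as reported, came to 1830 with 50 per 10000 and 2260 in the S100-high tier. Genes called between libraries, 505 as reported, came to 762 with the floor on CPM divided by 2 and 240 with it doubled. Genes called in Cxcl10 carriers, 1264 as reported, came to 663 with that floor doubled. Carriers could not be compared at 2 or more UMIs, with 3 of the 5 genes or in the S100-high tier, since library 2 then had 0 carriers. All other alternatives left these counts within 1.5 times, and both counts of the S100-high tier were so under all 4 tried for each. Depth limits single genes: in the S100-high tier of library 2, 3 counts are 32.2 CPM.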
